A study of Homo sapiens with 10 samples.

Results

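FLAG-PUS7 peaks were examined where they overlapped a nuclear tRNA gene or lay within 200 bases of one. By this rule 346 of the 2048 peaks in 5 lists were members, and they fell on 146 of the 443 nuclear tRNA genes (33.0%) of the RefSeq gene table of GRCh38.p14. The rule used position only, and it did not use strand, signal or p-value. No member touched several tRNA genes.

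The libraries came from iCLIP, in which ultraviolet light links a protein to the RNA it touches in living cells and the linked RNA is sequenced. PUS7KO+FlagPUS7 cells, which lack their own PUS7 and carry a FLAG-tagged copy, gave 3 libraries in HEK 293T, a transformed human embryonic kidney line (passages p20 to p25), and 2 in H9, a human embryonic stem cell line (passages p40 to p45). PUS7KO cells without the tagged copy gave 3 mock libraries in 293T and 2 in H9, so that every group shares the knockout. Per the labels, 2 plates of 15 cm were irradiated at 254 nm with 200 mJ/cm2 for each replicate, and complexes were pulled down with anti-FLAG M2 beads for 2 h at 4 °C after RNase I digestion. The labels do not say whether a line was 1 clone, how strongly the tagged copy was expressed, or whether replicates were grown apart, and p-values here reflect nothing beyond the scatter of these libraries. Peak lists were used for the 5 FLAG-PUS7 libraries, named 293T 1 to 3 and H9 1 and 2, and no peak list of a mock library was used here. The lists hold no expression values, so that neither line nor the level of PUS7 was checked against its label.

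Each listed peak is a 200-base bin on a fixed grid of the genome, or several touching bins joined, with a strand. Its signal is the number of tags per bin, averaged over bins where several were joined, and is not scaled for depth. Summed over a list, it came to 5104 to 8938 in 293T, 18073 in H9 1 and 6362 in H9 2. The deposited lists carry the tag notRNA in their names, and tRNA rows were tabulated apart. The sources used here do not say whether reads of mature tRNA were taken out before peaks were called, so that peaks at tRNA genes describe what remained in these lists.

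PUS7 is a pseudouridine synthase, an enzyme that turns uridine into its isomer pseudouridine in tRNA and in other RNAs. A tRNA gene is transcribed by RNA polymerase III into a precursor with a short leader before the tRNA and a trailer after it, and the trailer ends at a run of T in the gene. Both extensions are cut off, and the mature tRNA then receives CCA at its 3' end. Many tRNAs are encoded by several gene copies whose mature sequences are the same and whose flanks differ. In the gene symbols used here the letter after TR is the amino acid, the 3 letters after the hyphen are the anticodon, the number that follows marks a mature sequence, and the last number marks the copy. TRG-CCC2-1 and TRG-CCC2-2 are thus copies of 1 glycine tRNA.

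Sequences are shown for the 8 member genes that lie under another gene's promoter window in the RefSeq table, because the peaks lay over the 3' ends of genes and the bases after them. The tRNA part is in lower case and the bases after it, up to the first run of TTTT, are in capitals. All are 5' to 3' on the strand of the peak, from RefSeq, GRCh38.p14. TRG-CCC2-1 and TRL-AAG2-4 are shown from inside the gene because the window starts there.
TRG-CCC2-1, chr2:70248981-70249043, minus strand: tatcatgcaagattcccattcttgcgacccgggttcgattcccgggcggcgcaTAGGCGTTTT
TRG-CCC2-2, chr16:636723-636806, minus strand: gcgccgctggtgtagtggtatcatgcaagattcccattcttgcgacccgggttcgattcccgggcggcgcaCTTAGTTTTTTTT
TRH-GTG1-3, chr1:148281365-148281471, plus strand: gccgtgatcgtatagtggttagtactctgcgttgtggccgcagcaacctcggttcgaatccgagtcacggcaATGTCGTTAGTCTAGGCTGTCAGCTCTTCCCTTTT
TRH-GTG1-9, chr15:45201151-45201257, plus strand: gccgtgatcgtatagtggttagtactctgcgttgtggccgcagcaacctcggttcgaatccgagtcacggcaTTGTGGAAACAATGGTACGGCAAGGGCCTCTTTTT
TRI-AAT8-1, chr6:27668583-27668703, plus strand: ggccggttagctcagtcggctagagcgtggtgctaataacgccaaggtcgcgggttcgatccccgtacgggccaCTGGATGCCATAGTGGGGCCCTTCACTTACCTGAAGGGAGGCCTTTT
TRL-AAG2-4, chr16:22297159-22297237, plus strand: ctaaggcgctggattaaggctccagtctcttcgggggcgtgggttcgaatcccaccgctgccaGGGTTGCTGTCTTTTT
TRN-GTT6-1, chr1:143735905-143735993, minus strand: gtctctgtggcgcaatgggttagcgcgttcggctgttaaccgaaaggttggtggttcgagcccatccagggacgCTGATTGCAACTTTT
TRT-TGT6-1, chr5:181191674-181191758, minus strand: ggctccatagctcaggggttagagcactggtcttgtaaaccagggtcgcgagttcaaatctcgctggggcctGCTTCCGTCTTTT

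In these genes TTTT began 6 to 44 bases after the gene, in 8 of 8. TTTT was present in the first 60 bases of 21.8% of all RefSeq promoter windows, searched on 1 strand. Those windows were not matched to the trailers in base content. For some of the genes fewer than 60 bases after the gene were at hand, with 34 at TRG-CCC2-2. The 7 letters GGTTCGA, part of the internal promoter element called the B box, lay on the strand of the peak in 7 of 8 genes and on the opposite strand in 0. Searched on both strands, these letters were found in 0.86% of RefSeq promoter windows of 300 bases. The exception was TRT-TGT6-1, which held them on neither strand. The gene parts of the 2 glycine copies were identical over the 53 bases shown for both, whereas 4 of the first 10 trailer bases were the same. TRH-GTG1-3 and TRH-GTG1-9 were identical over 72 gene bases, and 15 of their first 35 trailer bases matched.

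PUS7 is known to act on a U within TNTAA or TNTAG, and in several tRNAs that U lies in the D arm, near the 5' end. Among the 6 genes shown whole, TRG-CCC2-2 (with TGTAG), TRH-GTG1-3 and TRH-GTG1-9 (both with TATAG) held the letters from base 11 on, which puts the middle T at base 13. The other 3 held no such letters in their first 20 bases, on the peak's strand. As background, 9.67% of RefSeq promoter windows held them in their first 20 bases. Gene sequences were at hand for these 8 genes only, so that members were not compared with other tRNA genes on this motif.

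The peaks lay at and after the 3' ends of the tRNA genes. All 346 members held bases past the 3' end of the gene they touched or lay nearest to, counted on the strand of the peak, and the fewest such bases in any member was 26. The RefSeq table used gives no strand for genes, so that 3' and 5' are those of the peak's strand throughout. No locus had peaks on both strands. Of the members, 149 covered the whole gene, 129 held a 3' part of it and 68 lay wholly beyond the 3' end, over 67, 52 and 31 genes. None held only the 5' part or the middle of a gene, and none lay before the 5' end.

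Bases before the 5' end were held by 143 members. Among the 125 peaks of 1 bin that covered a whole gene, the bin reached a median of 33 bases before the gene (0 to 102) and 86 bases after it (26 to 127). All 24 longer peaks that covered a whole gene reached further after it than before it. Base 13 of the gene, where the letters above were found, lay inside 175 of the 346 members (50.6%), and this share was 43.5% to 51.9% in the 5 lists. Of the 129 members that held a 3' part of the gene, 26 reached base 13.

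**Figure D1:**
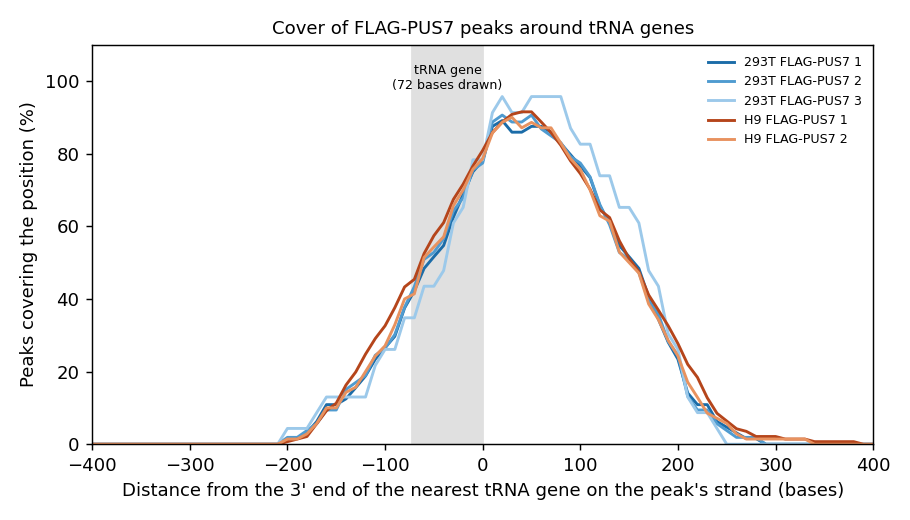
Percent of peaks covering each position, against the distance in bases from the 3' end of the nearest tRNA gene on the peak's strand, with 1 line per FLAG-PUS7 library. The members are plotted with the 5 further peaks within 1000 bases, and the grey band stands for a typical gene. In all 5 lists cover was 26.1% to 32.6% at 100 bases before the gene's 3' end and 74.5% to 82.6% at 100 bases after it.

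The 68 members beyond the 3' end, which touched no tRNA gene, numbered 13, 11 and 5 in 293T and 25 and 14 in H9. Their distance from the gene was 1 to 87 bases with a median of 19. Scored against the nearest tRNA gene, all 68 were after it and 0 before it, in each of the 5 lists. At TRL-AAG1-3, a leucine gene with such a peak in all 5 lists, a second gene, TRV-CAC1-4, lay within the window, and on the peak's strand the peak was 79 bases before that one. No other of the 68 had a second tRNA gene within 200 bases. A window of 500 bases added no peak. A window of 1000 bases added 5, all of them after the gene. Of these, 4 were at 1 locus, 572 bases after TRL-CAA6-1, and 1 lay 926 bases after TRX-CAT1-2. These wider windows were chosen after seeing the data.

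Which bin was called varied with the room left in the gene's own bin. The grid of bins takes no account of genes, so that a gene may end anywhere within a bin. Of the members, 256 held the bin of the 3' end without the next bin. In these, 26 to 199 bases of that bin were left after the gene, with a median of 133. They include TRG-CCC2-1 in every list, where the bin before it was joined. In the 68 members where the next bin was called alone, 0 to 86 bases were left, with a median of 18. The bin of the 3' end and the next bin were joined in 22 members, with 9 to 188 bases left and a median of 34. The ranges overlap between 26 and 86 bases, where 63 of 104 members had the gene's own bin alone, 13 both and 28 the next bin alone. On either side of that overlap lay 45 and 197 members. There, 1 of the 2 outcomes without a join across the 3' edge is missing because the bounds were taken from these data. These counts are over members, and the same gene can enter from several lists.

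**Figure D2:**
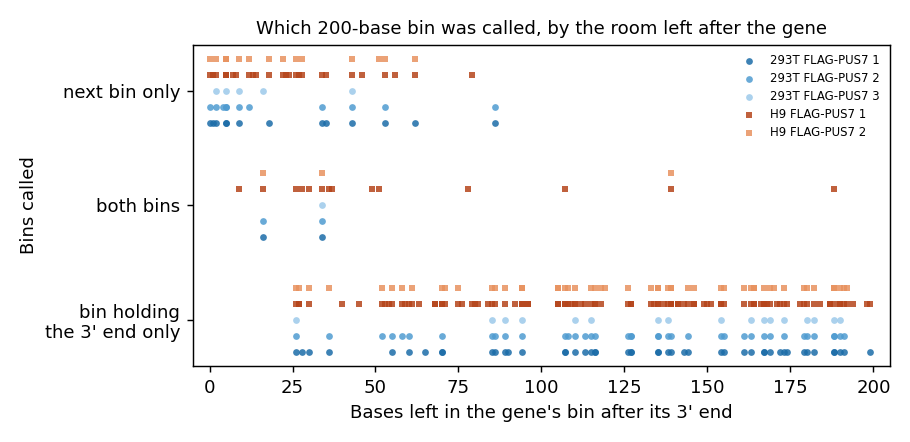
Each point is 1 member, placed by the bases left in the gene's bin after its 3' end (horizontal axis) and by which bins were called (vertical axis), with colours and symbols for the 5 libraries. Points for the next bin alone end at 86 bases of room in 293T and at 79 in H9. Points for the gene's own bin without the next start at 26 in both lines. TRG-CCC2-1, whose peak also joins the bin before, is among the latter.

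TRT-TGT6-1, a threonine tRNA gene, had the member farthest beyond its gene. Its peak began 87 bases after the 3' end, at a signal of 10 in 293T 1 and 16 in 293T 2, whereas TTTT began 10 bases after the gene in the sequence shown. TRH-GTG1-5, a histidine tRNA gene, had its peak 3 bases after the gene in all 5 lists.

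Members beyond the 3' end made up 20.6%, 21.2% and 21.7% of the members in 293T and 18.0% and 20.3% in H9. H9 minus 293T was -2.04 points (exact permutation p = 0.1, two-sided, which 10 assignments cannot go below). Both H9 values were below all 293T values, by less than the width of any single library's interval (12.0% to 25.4% for H9 1, exact binomial, for counting error alone). They held 5.81%, 6.59% and 7.6% of the members' summed signal in 293T and 8.23% and 7.31% in H9. Where the peak touched the gene, the median signal per bin came to 18, 28 and 47 in the 293T lists and to 8 and 12 in the H9 lists. Where the peak lay beyond it, the medians in the same order were 14, 17, 28, 7 and 16. The log2 ratio of the 2 medians averaged 0.32 ± 0.47 (SD, n = 5) and was above 0 in 4 of 5 lists (exact two-sided sign-flip permutation p = 0.25; 5 libraries cannot reach 0.05). A difference in signal between the 2 placements was therefore not shown.

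Members took up a large share of the 293T lists and a smaller share of the first H9 list. They were 63 of 120, 52 of 85 and 23 of 39 peaks in 293T, which is 52.5% (95% exact binomial interval 43.2% to 61.7%), 61.2% (50.0% to 71.6%) and 59.0% (42.1% to 74.4%). In H9 they were 139 of 1605 (8.66%, 7.33% to 10.1%) and 69 of 199 (34.7%, 28.1% to 41.7%). H9 minus 293T was -35.9 points in the mean (exact permutation p = 0.1), and the H9 lists differed from each other by much of that distance. H9 1 alone held more peaks than the other 4 lists together. Without it the difference was -22.9 points. Of the summed signal, members held 54.5%, 65.9% and 67.8% in the 293T lists against 27.0% and 57.8% in the H9 lists, a difference of -20.4 points (exact permutation p = 0.3), so that the lines overlapped.

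The members' loci recurred between lists. Of 146 member loci, 82 (56.2%) had a peak in at least 2 lists, beside 143 of 1473 other peak loci (9.71%). Most loci seen once came from the longest list, since 58 member loci and 1325 others were in H9 1 only. With H9 1 left out, a comparison added after seeing the data, 55 of 88 member loci (62.5%) and 45 of 148 others (30.4%) had a peak in at least 2 of the 4 lists. All 5 lists shared 23 member loci and 9 others. Loci whose peaks all lay beyond the 3' end recurred to a like degree, with 15 of 27 in at least 2 lists (55.6%) and 3 in all 5. Both lines had 63 of the loci. In both H9 lists and no 293T list were 18, and in all 293T lists and no H9 list 0. These 2 counts are not alike. The first needs a peak in 2 lists, among them H9 1 with 1605 peaks. The second needs a peak in 3 lists, among them 293T 3 with 39, and none in H9 1. They were not made for the other peak loci, so that no background stands beside them.

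Signal was concentrated in a few genes. The 5 members of highest signal summed over bins carried 69.2%, 65.8% and 78.4% of the members' signal in 293T and 47.2% and 59.6% in H9. They were the same 5 genes in each 293T list, namely TRV-CAC3-1, TRG-CCC2-2, TRG-CCC2-1, TRL-CAG2-1 and TRN-GTT9-1. In the order 293T 1 to 3 and H9 1 and 2, TRV-CAC3-1, a valine tRNA gene on chromosome 19, had signals of 634, 923.5, 675.5, 416 and 500.5. Its peak spanned 2 bins, 4724401 to 4724800 on the minus strand. It held 14.2%, 21.5% and 26.5% of the whole list signal in 293T and 4.6% and 15.7% in H9. The lines overlapped, because H9 2 exceeded 293T 1.

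The glycine pair with anticodon CCC was among the 5 members of highest summed signal in each 293T list and in H9 1. In H9 2 both genes had a peak, and neither was among the 5. TRG-CCC2-2 on chromosome 16 had signals of 785, 608, 472, 358 and 145 in a peak at 636601 to 636800, and TRG-CCC2-1 on chromosome 2 had 388.5, 315, 233, 218.5 and 90.5 at 70248801 to 70249200, both on the minus strand. As shares of list signal, TRG-CCC2-2 stood at 8.78%, 7.07% and 9.25% in 293T and 1.98% and 2.28% in H9, with both H9 values below all 293T values. TRL-CAG2-1, a leucine tRNA gene on chromosome 16, had 334, 395, 235, 320 and 212 per bin. TRN-GTT9-1, an asparagine tRNA gene on chromosome 1, had 208, 252, 188, 29 and 44. Its share of list signal was 2.33%, 2.93% and 3.68% in 293T against 0.16% and 0.692% in H9.

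The other loci in all 5 lists were weaker than these 5 genes in the 293T lists. In H9 some exceeded TRN-GTT9-1, among them TRL-TAA4-1 and TRL-AAG1-3 in both lists. Glycine gene TRG-TCC2-6 had signals of 74, 103, 154, 58.5 and 27, with the peak beyond the gene in 293T 3. TRG-CCC1-1 had 68, 119, 27, 32 and 40, and TRG-CCC1-2 had 61, 115, 28, 16.5 and 37, with every peak but that of H9 1 beginning 10 bases after the gene. Leucine genes TRL-TAA4-1 (80, 145, 63, 119 and 75) and TRL-TAG3-1 (48, 36, 24, 21 and 10) touched their peaks, whereas at TRL-AAG1-3 (46, 51, 28, 67 and 53) each peak began 44 bases after the gene.

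Lysine genes TRK-CTT2-2 and TRK-CTT2-4 reached 107, 71, 50, 94 and 20, and 17, 34, 23, 39 and 22. Serine gene TRS-GCT6-1 had 60, 99, 29, 113 and 28, and arginine gene TRR-ACG1-1 had 40, 46, 29, 50 and 19. For histidine, TRH-GTG1-1 had 47, 104, 44, 33 and 30, and TRH-GTG1-5 had 33, 53, 31, 38 and 30, all of the latter beyond the gene. The remaining asparagine genes were TRN-GTT9-2 (47, 75, 59, 8 and 12) and TRN-GTT2-4 (33, 77, 53, 36 and 17). Alanine gene TRA-CGC1-1 had 22, 58, 30, 9.5 and 9. Isoleucine gene TRI-AAT5-1 had 27, 40, 22, 10 and 9, beyond the gene. The methionine genes were TRM-CAT4-1 (32, 28, 26, 9 and 11) and TRM-CAT4-3 (35, 32, 28, 10 and 12).

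**Figure D3:**
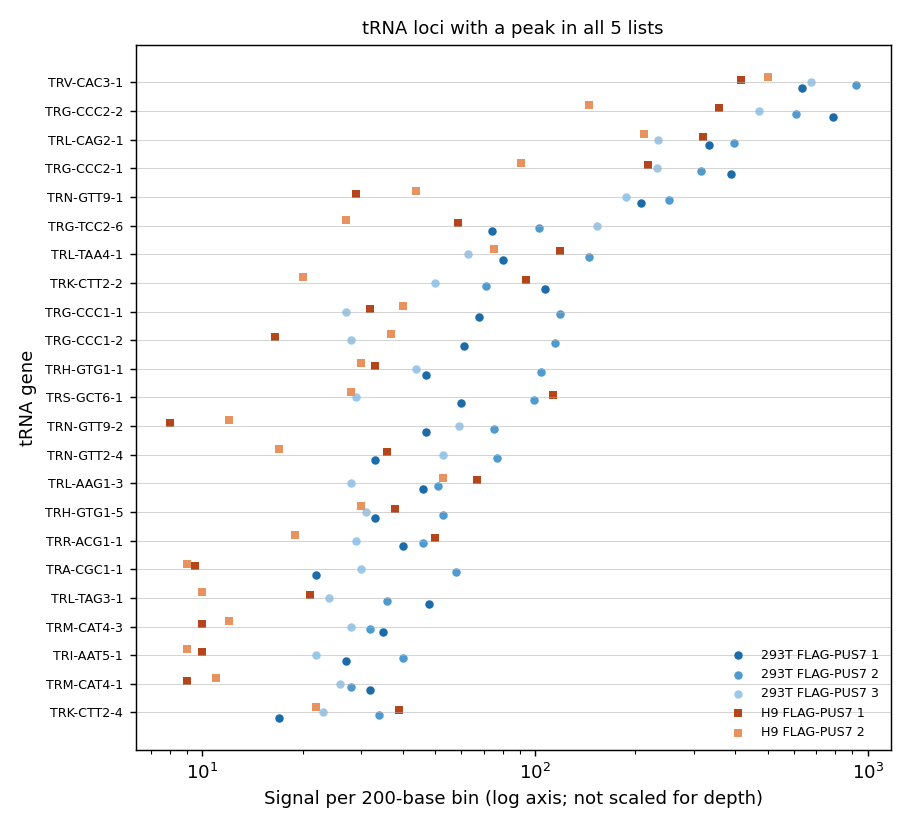
Signal per 200-base bin (log axis, not scaled for depth) at the 23 tRNA loci with a peak in all 5 lists, 1 point per library. TRV-CAC3-1 reaches 923.5 and the lowest point is 8, at TRN-GTT9-2 in H9 1.

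As shares of list signal, 15 of these 23 loci had both H9 values below all 3 values of 293T, and 0 had both above. Over all 32 loci found in every list, the same was true of 68.8% below and 3.12% above, so that the members' count is near the background.

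Isoleucine genes were among the 5 members of highest summed signal in both H9 lists and in no 293T list. TRI-AAT7-2, on chromosome 6 at 26780601 to 26780800, had a signal of 340 in H9 1 and 372 in H9 2 and no peak in any 293T list. Its copy TRI-AAT7-1, at 26720801 to 26721000, had 332 and 342 in H9, 10 in 293T 1, 23 in 293T 2 and no peak in 293T 3. Together they held 13.8% and 19.4% of the members' signal in H9 and 0.205%, 0.406% and 0.0% in 293T. The groups did not overlap. The genes were noticed for this difference, so that it is given as a description.

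Isoleucine as a whole held 16.9% and 23.5% of the members' signal in H9 and 1.72%, 1.9% and 0.636% in 293T. Of the 18 loci in both H9 lists and no 293T list, TRI-AAT7-2 was followed by TRN-GTT7-1 (96 and 33), TRI-AAT2-1 (49 and 25), TRH-GTG1-3 (18 and 27) and TRH-GTG1-4 (19 and 19). TRN-GTT6-1, for asparagine, had 264 in H9 2 and no peak in the other 4 lists, which makes it the fourth strongest member of that list. A list without a peak is not a measured level of 0, since the lists give no values outside peaks.

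Copies with the same mature sequence had nearly equal signal in some sets and unequal signal in others. Because joined peaks average their bins, copies are compared by signal summed over bins, a choice made after seeing the data. The 2 strong glycine copies were close, with 785, 608, 472, 358 and 145 at TRG-CCC2-2 (1 bin) and 777, 630, 466, 437 and 181 at TRG-CCC2-1 (2 bins). TRG-CCC2-1 was the higher of them in 293T 2 and in both H9 lists, and the stronger exceeded the weaker by 1.01 to 1.25 times. Per bin, TRG-CCC2-2 would stand above TRG-CCC2-1 by 1.6 to 2.03 times. The TRG-CCC1 pair differed by 1.03 to 1.11 times in the 5 lists, and the TRI-AAT7 pair by 1.02 and 1.09 times in H9.

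In contrast, TRN-GTT9-1 exceeded TRN-GTT9-2 by 4.43, 3.36 and 3.19 times in 293T and by 3.62 and 3.67 times in H9, with 1 bin at each. Among sets with at least 2 copies under peaks in a list, the ratio of the strongest to the weakest copy had a median of 2.47 over 11 sets, 1.15 over 10 and 1.25 over 6 in 293T, and 2.25 over 26 and 1.46 over 16 in H9. Per bin the medians were 2.47, 1.54, 1.72, 2.08 and 1.59. Copies without a peak do not enter these ratios. The lowest signal of any member was 22 in 293T 3 and 3 in H9 1, so that ratios are not comparable between lists. Sets are not alike either, because a further copy can only keep or widen a ratio. In H9 1, TRG-TCC2 had 2 copies under a peak and TRH-GTG1 had 7.

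The set with the widest ratio differed from list to list. It was TRK-CTT2 in 293T 1 (10.7), TRH-GTG1 in 293T 2 (6.5), TRN-GTT9 in 293T 3 (3.19), TRG-TCC2 in H9 1 (16.7) and TRI-AAT5 in H9 2 (7.78). TRH-GTG1, the histidine tRNA, had 9 copies in the table and 7 under a peak in H9 1, where signals ran from 4 at TRH-GTG1-9 to 55 at TRH-GTG1-7, a ratio of 13.8. In 293T 3 and H9 2 its ratios were 1.42 and 1.58. The mature part of TRH-GTG1-9 shown above is the same as that of TRH-GTG1-3, which had 18 there. Glycine genes TRG-GCC1-1 to TRG-GCC1-4, which repeat along chromosome 1, had signals of 10, 20, 10 and 20 in H9 1 and 8, 16, 8 and 16 in H9 2, all beyond the gene. The sources used here do not say how tags that match several copies were assigned, and its part in these ratios was not tested.

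**Figure D4:**
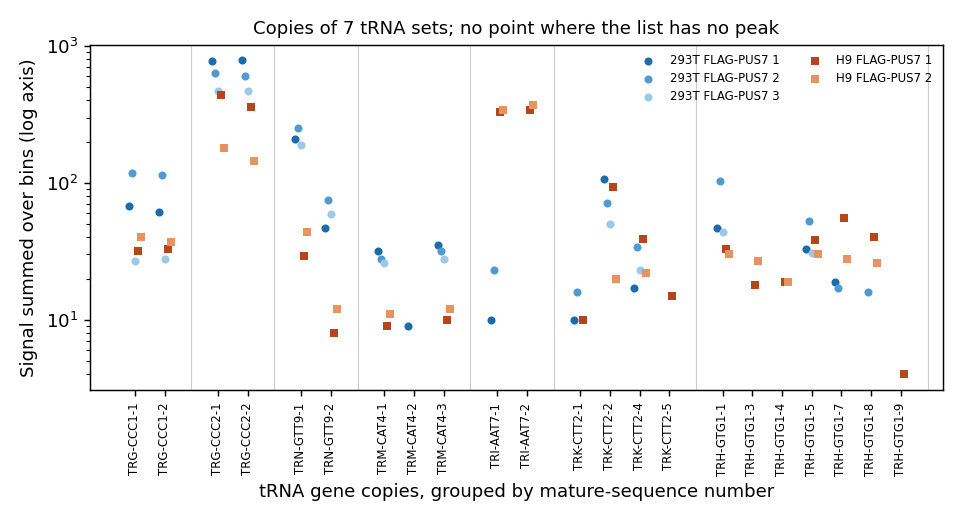
Signal summed over bins (log axis) of tRNA gene copies with a peak, grouped into 7 sets by mature sequence, 1 point per library. The TRN-GTT9 copies lie apart in all 5 lists (ratios 3.19 to 4.43), the TRG-CCC1 and TRG-CCC2 copies lie close in all 5 (ratios 1.01 to 1.25), and the TRI-AAT7 copies are high in both H9 lists.

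Isotypes are described by how many of their genes had a peak in at least 1 list, which leans on the longest list, H9 1. Histidine was highest, with 7 of 9 genes, followed by threonine (13 of 20), asparagine (14 of 26), glycine (17 of 33), serine (13 of 26), isoleucine (11 of 23), elongator methionine (5 of 11) and leucine (13 of 32). Glutamate (7 of 20), glutamine (6 of 19), lysine (8 of 27), arginine (7 of 26), proline (5 of 20), alanine (8 of 38) and valine (5 of 30) lay between 35.0% and 16.7%. At the low end were aspartate and tyrosine (2 of 13 each), phenylalanine (1 of 11) and cysteine (2 of 29). Initiator methionine (0 of 8), tryptophan (0 of 7) and selenocysteine (0 of 2) had none. Without H9 1, 88 of 443 genes (19.9%) had a peak. Histidine (6 of 9), threonine (9 of 20), asparagine (11 of 26), glycine (12 of 33) and isoleucine (8 of 23) then had the highest shares. Leaving it out cut several isotypes by more than 1.5 times, among them serine (from 13 to 6 genes), leucine (13 to 7), glutamate (7 to 2) and alanine (8 to 3), and aspartate, tyrosine and phenylalanine had none. Genes of 1 isotype share sequence, so that they are not independent, and these shares are given without a test.

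**Figure D5:**
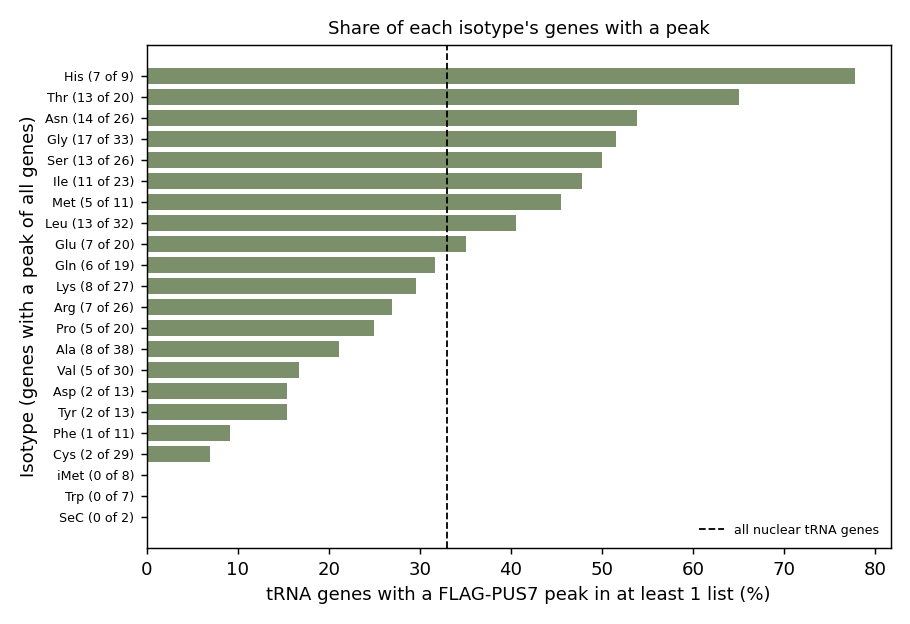
Percent of the nuclear tRNA genes of each isotype with a FLAG-PUS7 peak in at least 1 of 5 lists (bars from 0; without H9 1 the bars are shorter, with 19.9% over all genes), with the number of genes beside each name and the share over all genes, 33.0%, as the dashed line. Histidine stands at 77.8% and 3 isotypes at 0.

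Some isotypes held much signal in few genes. Valine had 5 member genes but 26.4%, 33.4% and 39.0% of the members' signal in 293T and 17.6% and 27.7% in H9, most of it at TRV-CAC3-1. Glycine had the most member genes, 17, and 39.2%, 30.1%, 33.2%, 22.2% and 13.9% of the signal, with both H9 values below all 293T values. It was 1 of 7 among 22 isotypes whose shares of signal did not overlap between the lines. Threonine had 13 member genes and between 0.0% and 2.85% of the signal in any list, and no member in 293T 3.

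By share of member peaks, arginine, glutamine and glutamate were higher in both H9 lists than in all 293T lists (3 of 22 isotypes, 13.6%), and leucine, lysine and methionine were lower (3 of 22, also 13.6%). None passed the exact permutation test after Benjamini-Hochberg adjustment over 22 isotypes (lowest adjusted p = 0.733). With 5 libraries no isotype could have passed, and 0 were under 0.05 before adjustment.

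Chromosome 6, which carries the largest group of tRNA genes, has 155 of the 443 genes (35.0%). It carried 33.3%, 30.8% and 39.1% of member peaks in 293T and 35.3% and 33.3% in H9 (difference -0.118 points, exact permutation p = 1.0). It held 10.4%, 12.3% and 8.12% of the members' signal in the 293T lists against 30.0% and 31.4% in the H9 lists, a difference of 20.4 points (exact permutation p = 0.1, the smallest possible). Without TRI-AAT7-1 and TRI-AAT7-2, the shares were 10.2%, 12.0% and 8.12% against 18.8% and 14.9%, which leaves 6.75 points. That comparison was added after seeing the data.

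Genes in clusters, taken as at least 10 tRNA genes with gaps of at most 1000000 bases, had a member in 97 of 296 cases (32.8%), and genes outside clusters in 49 of 147 (33.3%). Single clusters differed more. On chromosome 1, the cluster from 143691474 to 148529330 had 15 of 25 genes under a peak, among them TRN-GTT9-1, TRN-GTT9-2 and TRH-GTG1-3. The cluster on chromosome 7 from 149310190 to 149707740 had 1 of 19, and the one from 28755 to 1133792 on chromosome 1 had 0 of 13. Whether these 13 entries lie on the main sequence of chromosome 1 or on alternate or unplaced sequence was not checked. Peaks on the latter could not be matched, so that this 0 is not read as a lack of peaks. The 13 are counted in the 443 and 296 genes and among those of asparagine, glutamate and glycine. The large cluster on chromosome 6, from 26286526 to 28989083, had 50 of 144.

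Each peak also carries a second value, read here as a count whose role the sources used here do not give. It was 0 at 95.2%, 80.8% and 91.3% of members in 293T and at 96.4% and 81.2% in H9. Among the other peaks it was 0 at 57.9%, 51.5%, 56.2%, 78.1% and 13.8%, so that members had a 0 more often in every list. Among members it was highest at TRG-CCC2-2 in all 5 lists, at 5, 8, 4, 5 and 17 beside signals of 785, 608, 472, 358 and 145.

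The mock pull-down could be set beside the members only through the tRNA tables, which show whether a tRNA row was detected and not how much of it. Among 136 rows of member genes, 66.9%, 41.9% and 44.1% were detected in the 293T knockout libraries and 0.0% and 69.1% in those of H9. The other 272 rows were detected at 47.8%, 27.9%, 23.5%, 0.0% and 45.6%. The 0 in the first H9 knockout library follows from how the tables were read. The values read as no reads comprised 2 levels in each FLAG-PUS7 table and 4 or 5 in the knockout tables, so that the cut is not the same in both kinds of library and they should be read within a library. In the FLAG-PUS7 libraries 99.3% to 100% of the members' rows and 96.0% to 96.7% of the others were detected. Rows of member genes thus were detected more often than others in the mock libraries as well, in each of the 4 that had any. Of the 22 rows for genes under a peak in all 5 lists, 0 were absent from every knockout library, beside 24 of 136 members (17.6%) and 105 of 272 others (38.6%). TRV-CAC3-1 was detected in 2 knockout libraries, TRG-CCC2-1 in 4 and TRG-CCC2-2 in 3. A row's reads may be shared by copies with the same mature sequence, and the amount of each tRNA in these cells was not measured, so that the part of abundance in the members was not tested.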

How the data were processed

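Of 10 iCLIP libraries, 5 have peak lists. Per the submitters' processing notes, Bowtie, SAMtools, bedtools and build hg38 were used, and the peak-calling tool is one the sources used here do not name. The deposited lists give a signal (tags per 200-base bin, whole in all 1901 peaks of 1 bin), the authors' p-value, and the natural log of a second count. The exponential of the deposited natural log values was whole within 0.01 in all 419 peaks of 1 bin above the lowest value, and 1 was subtracted; whether the count or the count plus 1 was logged is not stated. Summed signal is signal times bins. The deposited tRNA tables hold level numbers, read only as detected or not.

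Peaks were matched to 443 nuclear tRNA genes of the RefSeq table (22 mitochondrial ones left out) with Python 3.11.15, pandas 2.3.3, numpy 2.4.6 and scipy 1.17.1. Peaks on alternate or unplaced sequences (2, 1, 1, 38 and 4 per list) could not be matched. Lines were compared by exact permutation over 10 assignments, so that no p can be under 0.1. The code that assigns peaks to genes and sides was checked on made-up peaks of known position; no chance placement was simulated. Named genes are those in all 5 lists, each list's 5 strongest members, 2 strongest beyond the gene and 3 of highest second count, the 5 strongest loci of 1 line only, and isotypes with at least 5 loci; others named were chosen after their values were seen. Members and lists were chosen with earlier results of these data known. Alternatives were other windows, a p-value of at most 0.001, counting in bins, subtracting the second count, leaving out each library and a replicate block. Comparisons needing the strand of tRNA genes, and the motif over all tRNA genes, could not be run because the tables used give neither strand nor tRNA sequence.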

Additional observations from a re-analysis of the deposited data

How the results depend on the processing

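All 68 peaks beside a gene lay after it with windows of 100, 200 and 500 bases, and all 73 with 1000 bases. H9 minus 293T differences kept their sign under the window, p-value, bin and second-count settings tried for the share of peaks, the share of signal and the share beyond the gene. The share of signal moved most, from -20.4 points (exact permutation p = 0.3) to -8.38 (p = 0.8) with the second count subtracted and to -13.8 (p = 0.3) with signal not multiplied by bins. Leaving out 1 library at a time gave -48.9 to -22.9 points for the share of peaks (-48.9 without H9 2, -22.9 without H9 1) and -35.8 to -4.93 for the share of signal (-35.8 without H9 2, -4.93 without H9 1). It gave -3.19 to -0.886 for the share beyond the gene, and 7 to 13 isotypes that did not overlap between lines beside 6 with all libraries (13 without H9 2). Leaving out a library can only keep or raise that count of isotypes, so that its rise shows nothing. The replicate block pairs replicates 1 and 2 across lines by number only. With it, the differences in share of peaks, share of signal and share beyond the gene were -35.2, -17.8 and -1.76 points. The chromosome 6 share of member peaks had no stable direction: -0.118 points with all libraries, -1.94 to 2.24 leaving out 1 (2.24 without 293T 3, 0.841 without H9 2), and 2.24 with the replicate block. By signal it was 20.4 points, and 6.75 without TRI-AAT7-1 and TRI-AAT7-2; the cause was not tested. Loci in all 5 lists with H9 below 293T numbered 15 in the main setting. They numbered 13 when scaled to the members' signal, and also 13 with the second count subtracted. Leaving out 1 library gave 15 to 21, but this can only keep or raise such a count, so that no conclusion is drawn from it. No share over all loci stands beside these alternatives. The share of members on the strand of their gene and the TNTAA or TNTAG comparison over all tRNA genes were planned and not run. Depth is known only as summed list signal, so that weak loci missing from short lists, such as 293T 3, may be below what those lists could show.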
